A study of Mus musculus with 20 samples.

Results

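The lysosome of 2 sorted myeloid populations is described here through 33 genes, which were taken by name: cathepsins and legumain, other acid hydrolases and their cofactors, membrane proteins, proton pump subunits and the transcription factors that regulate lysosomal genes. All 33 were found among the 23090 genes counted in each of 20 libraries. The libraries hold poly-A RNA of tumour-infiltrating cells sorted by flow cytometry as CD45+, CD11b+, Ly6C+ and F4/80-, either Ly6G- (monocytic myeloid-derived suppressor cells, mMDSC) or Ly6G+ (granulocytic, gMDSC). Each population was taken from mice dosed by mouth, BID for 7 days, with MCT vehicle or with 25 mg/kg of GNE-781 (CBPi), an inhibitor of the bromodomain of the acetyltransferases CBP and EP300, with 5 libraries in each of the 4 groups. All hosts were age-matched female SCID.beige mice of 6 to 8 weeks, a strain that lacks T, B and functional NK cells. They carried subcutaneous tumours grown from injected cells of either MDA.MB.231-X1.1, which derives from human breast cancer, or the murine colon carcinoma CT26, and dosing began at a mean volume of 150 to 200 mm3. The labels tie no library to a tumour line or to a mouse, so differences between lines cannot be told apart from differences between libraries.

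Library totals ran from 12372630 to 26635889 counts. Levels are counts-per-million values (CPM), scaled by TMM over the 20 libraries, and are given as mean ± SD with n = 5 unless stated. The labelled populations were checked against markers. Ly6g, the gate of gMDSC, was at 0 to 0.404 CPM in the mMDSC libraries and at 0.442 to 9.03 CPM in the gMDSC libraries, and the neutrophil gene S100a9 was at 3.18 to 29.2 CPM against 2061 to 19259 CPM. Of 11 neutrophil markers, 10 were tested between the populations: 5 were higher in gMDSC with vehicle and 7 under CBPi, and Cd177 was lower with both (log2 fold change -2.33 ± 0.26 and -1.08 ± 0.38 SE). Its call under CBPi held only without CBPi mMDSC 8 or CBPi gMDSC 6 (adjusted p otherwise at most 0.0946). Ly6g was too low to be tested with vehicle and was higher under CBPi. Macrophage genes were high in both populations: the 19 macrophage markers summed to 22906 to 35507 CPM in mMDSC and to 18030 to 77779 CPM in gMDSC, and Adgre1, which encodes F4/80, was at 438 to 1533 CPM over all 20 libraries although F4/80+ cells were gated out. Vehicle gMDSC 3 stood apart, with the highest macrophage sum (77779 CPM) and the highest neutrophil sum (33852 CPM) of its group. CBPi gMDSC 6 and 7 had the lowest macrophage sums of theirs (18030 and 20850 CPM). In bulk libraries like these, fewer cells of a type and less RNA per cell cannot be told apart. Crebbp and Ep300, the genes of the inhibitor's targets, passed no test of CBPi against vehicle (Crebbp log2 fold change 0.20 ± 0.21 SE in mMDSC and -0.04 ± 0.24 in gMDSC, Ep300 0.16 ± 0.16 and 0.29 ± 0.17).

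Lysosomes break down proteins, glycans and lipids with hydrolases that work at acid pH, which a vacuolar proton pump maintains. Many hydrolases travel from the Golgi on mannose 6-phosphate receptors, and heavily glycosylated proteins such as LAMP1 and LAMP2 line the lysosomal membrane. Phagocytes are rich in these proteins and use cathepsins for antigen processing and for activating granule proteases. The transcription factors TFEB, TFE3 and MITF bind E-box sequences in the promoters of many lysosomal genes. When mTORC1 is active on the lysosome surface, it holds TFEB and TFE3 in the cytoplasm.

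The E-box is a short palindrome, CACGTG, and the form preferred by TFEB and MITF is CACGTGA. RefSeq promoter windows of assembly GRCm38.p6, from 250 bases before to 50 bases after a gene's start, were at hand for 29 of the 33 members (39 windows, since a gene can have several starts). No window was in the table for Atp6v0d2, Ctsb, Ctsh and Npc1. CACGTG was found in the windows of 9 of the 29 members (31%), beside 11.7% of the 9564 genes with a window that were tested in a CBPi comparison and 8.09% of all 27025 genes with one. CACGTGA, searched on both strands and overlapping CACGTG wherever it occurs, was found in 8 of them (27.6%, beside 7.01% and 4.29%). CATGTGA, a variant of the MITF site, was found in 6 (20.7%, beside 2.9% and 4.5%), and the AP-1 site TGANTCA also in 6 (20.7%, beside 6.38% and 8.97%). Members with a CACGTG were Atp6v1a, Ctsa, Ctsd, Ctsl, Gla, Glb1, Lamp1, Lgmn and Mcoln1. The 250 bases before a RefSeq start are shown for 6 members. Lamp1 holds 4 E-boxes within 61 bases of its start. Gla, Atp6v1a and Ctsl rose under CBPi in gMDSC, Neu1 rose in both populations, and Acp5 fell the most. Of 3 RefSeq starts of Acp5, the start shown is the one with a CATGTGA. For Atp6v1a, Ctsl and Acp5, the stretch shown lies inside the annotated gene, downstream of its 5′ end. Which start of these genes the cells use was not measured. Sequences are on the gene's strand, 5′ to 3′, in lower case, with the E-box (CACGTG), the MITF site variant and the AP-1 site in capitals in either orientation.
Lamp1, chr8:13158911-13159160, plus strand: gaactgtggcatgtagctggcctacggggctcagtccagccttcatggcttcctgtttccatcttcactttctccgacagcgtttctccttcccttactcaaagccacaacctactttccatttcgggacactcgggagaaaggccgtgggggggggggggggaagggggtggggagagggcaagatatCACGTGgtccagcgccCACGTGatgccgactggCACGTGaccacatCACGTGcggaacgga
Gla, chrX:134601006-134601255, minus strand: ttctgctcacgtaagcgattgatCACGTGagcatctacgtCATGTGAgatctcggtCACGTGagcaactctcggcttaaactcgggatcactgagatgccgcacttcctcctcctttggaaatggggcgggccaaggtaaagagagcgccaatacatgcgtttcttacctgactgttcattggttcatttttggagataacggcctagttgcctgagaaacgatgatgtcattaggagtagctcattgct
Atp6v1a, chr16:44139260-44139509, minus strand: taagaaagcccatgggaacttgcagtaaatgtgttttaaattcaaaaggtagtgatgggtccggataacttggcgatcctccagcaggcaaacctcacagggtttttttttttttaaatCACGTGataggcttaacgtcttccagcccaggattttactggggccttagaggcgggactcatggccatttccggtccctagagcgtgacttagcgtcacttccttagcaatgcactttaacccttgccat
Ctsl, chr13:64370521-64370770, minus strand: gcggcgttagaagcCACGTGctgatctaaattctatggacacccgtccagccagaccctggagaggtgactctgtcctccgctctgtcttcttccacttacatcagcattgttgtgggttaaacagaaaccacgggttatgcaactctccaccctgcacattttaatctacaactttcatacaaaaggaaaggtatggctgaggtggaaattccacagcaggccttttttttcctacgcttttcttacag
Neu1, chr17:34931003-34931252, plus strand: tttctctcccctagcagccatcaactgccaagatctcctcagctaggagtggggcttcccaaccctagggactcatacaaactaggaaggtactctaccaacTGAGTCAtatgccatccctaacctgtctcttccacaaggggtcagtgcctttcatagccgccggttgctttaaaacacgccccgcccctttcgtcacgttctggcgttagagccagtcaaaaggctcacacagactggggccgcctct
Acp5, chr9:22130599-22130848, minus strand: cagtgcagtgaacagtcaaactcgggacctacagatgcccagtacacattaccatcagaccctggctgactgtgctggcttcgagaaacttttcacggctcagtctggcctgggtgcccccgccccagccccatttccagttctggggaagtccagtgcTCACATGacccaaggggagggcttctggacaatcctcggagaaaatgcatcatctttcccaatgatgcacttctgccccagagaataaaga

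Lysosomal genes were among the most abundant RNAs of these cells. The 33 members together summed to 51892 to 57001 CPM in vehicle mMDSC and to 45105 to 53094 CPM in vehicle gMDSC. Per kilobase of coding length, Ctss, the elastin-cleaving cathepsin S of antigen-presenting cells, led the members in vehicle mMDSC with a mean level of 7567 CPM per kb and ranked 8 among all genes. Ctsb (cathepsin B, 6687 CPM per kb), Ctsc (cathepsin C, which activates granule serine proteases, 4905) and Psap (the saposin precursor, 3670) followed. In vehicle gMDSC, Ctsb (6181 CPM per kb) and Ctss (6155) were at the head, and Ctsd (the aspartic protease cathepsin D, 4084) took place 3, against place 12 of the members in vehicle mMDSC. At the other end stood the regulators Tfe3 (45.7 CPM per kb in vehicle mMDSC), Tfeb (27.3) and Mitf (8.01), and Atp6v0d2, a pump subunit known from osteoclasts and macrophages, at 0.599. Neighbours in this order often overlapped: the spread of Ctss in vehicle mMDSC (6307 to 9684 CPM, coding length 1029 bases) and of Ctsb (5914 to 7604 CPM, coding length 1020 bases) could not separate them.

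**Figure D1:**
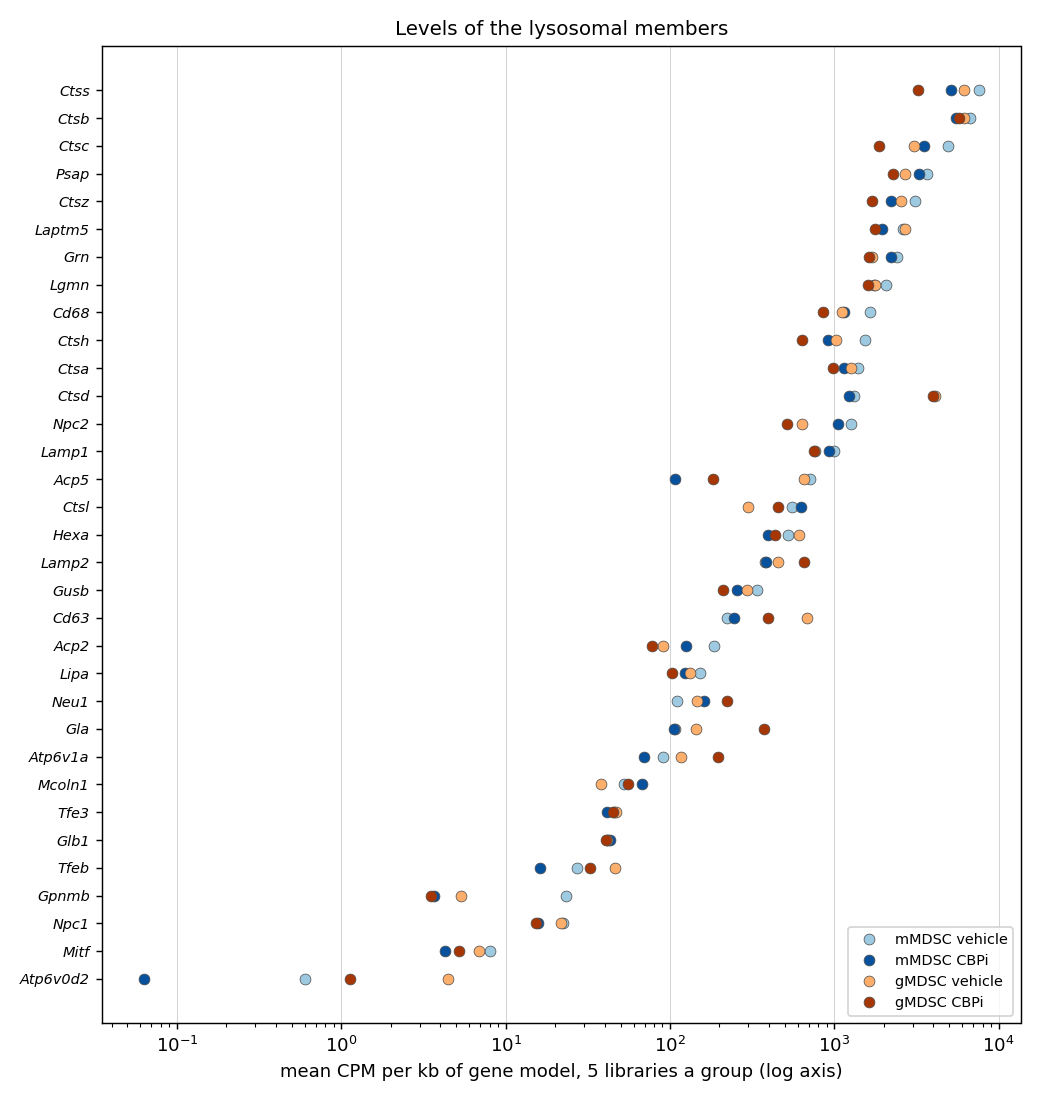
Mean level of each member in CPM per kb of gene model on a log axis, with 1 point for each of the 4 groups (5 libraries each). Ctss and Ctsb lie at the top in vehicle libraries, Ctsd is higher in both gMDSC groups than in both mMDSC groups, and Acp5 is lower in both CBPi groups.

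In mMDSC, more lysosomal genes fell than rose under CBPi. Of 32 members tested, 14 fell at an adjusted p under 0.05, beside 5.54% of all genes, and 1 rose, beside 3.02%. The largest falls were those of Acp5 and Gpnmb, 6.6-fold and 6.38-fold, and the riser was Neu1, 1.43-fold. The median log2 fold change over the tested members was -0.31, against 0.01 over all 11912 genes tested, and 27 of the 32 were negative. The summed level of the members was 51892 to 57001 CPM with vehicle and 41065 to 44167 CPM with CBPi, so that every CBPi library lay under every vehicle library. Atp6v0d2 was not tested because its counts were too low. In gMDSC, 6 of 33 members fell, beside 5.52% of all genes, and 4 rose, beside 4.18%. Here the falls were led by Acp5 (3.56-fold) and Ctss (1.89-fold), and the rises by Gla (2.62-fold) and Atp6v1a (1.69-fold). The median over the members was -0.34, against 0.00 over all 11694 genes, and again 27 were negative. The summed level went from 45105 to 53094 CPM with vehicle to 35618 to 41966 CPM with CBPi. Acp5, Ctsh, Ctss, Ctsz and Laptm5 fell in both populations, which is 35.7% of the members that fell in mMDSC and 83.3% of those that fell in gMDSC. Neu1 was the member that rose in both.

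Some of these counts rested on single libraries. In mMDSC the number that fell was 14 with all libraries, 7 without vehicle 2, 6 without vehicle 3, 9 without vehicle 5, 8 without CBPi 9 and 9 without CBPi 10. In gMDSC it was 6 with all libraries and 3 without vehicle 1, CBPi 7, CBPi 8 or CBPi 10, and the number that rose was 3 to 5. Without vehicle gMDSC 3 alone, 5 members rose and 6 fell. In a fit of all 20 libraries, 9 members fell in mMDSC and 10 in gMDSC.

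**Figure D2:**
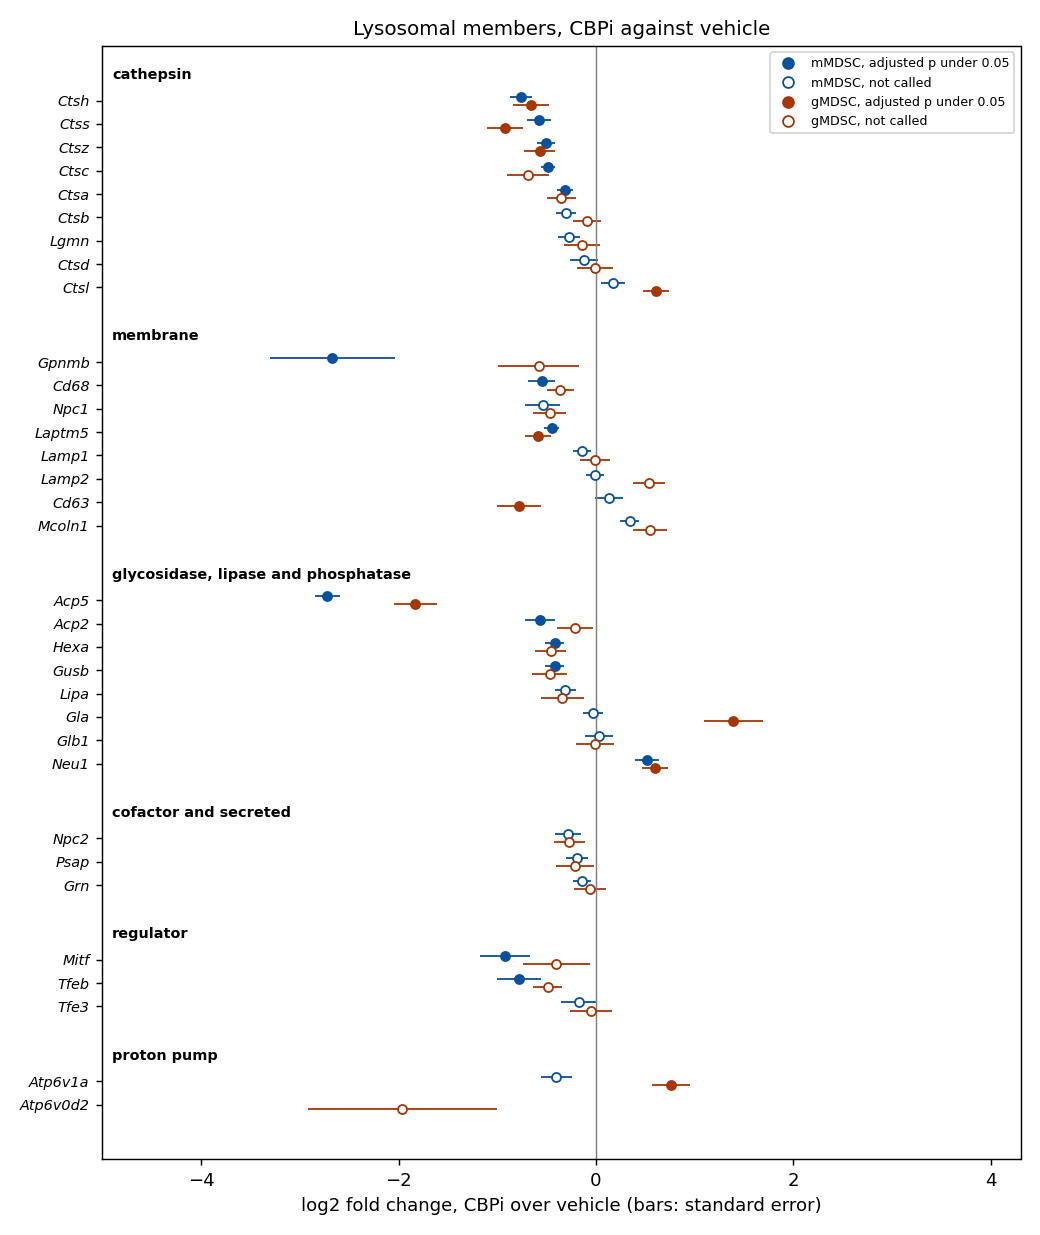
Log2 fold change of each member under CBPi with its standard error, by role, in mMDSC (blue) and gMDSC (brown). Filled points passed an adjusted p under 0.05: 14 fell and 1 rose in mMDSC, 6 fell and 4 rose in gMDSC, and Atp6v0d2 has no mMDSC point.

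Marker sums moved with the treatment as well. In mMDSC, the macrophage sum was 26087 to 35507 CPM with vehicle and 22906 to 27208 CPM with CBPi, the monocyte sum (7 genes) 3338 to 5616 and 2897 to 3298 CPM, and the dendritic cell sum (10 genes) 378 to 560 and 213 to 287 CPM. In gMDSC, the macrophage sum was 35436 to 77779 CPM with vehicle and 18030 to 34200 CPM with CBPi, the neutrophil sum (11 genes) 8722 to 33852 and 7053 to 13416 CPM, and the dendritic cell sum 455 to 665 and 248 to 364 CPM. The monocyte sum in gMDSC was 965 to 1590 CPM with vehicle and 776 to 1025 CPM with CBPi. The genes within a list did not move as one. Of 17 macrophage markers tested, 4 fell and 2 rose (Mrc1 and Pf4) in mMDSC, and 3 fell and 0 rose in gMDSC (edgeR, with 9 at an unadjusted p under 0.05 in either direction). Of the neutrophil markers, 1 of 9 tested fell in mMDSC and 4 of 11 in gMDSC. Of the 7 monocyte markers, Ly6c2, Ccr2 and Treml4 fell in both populations, and F13a1 rose in gMDSC. Ly6c2 encodes a Ly6C protein, and Ly6C was part of the sort gate. Of the dendritic cell markers, Itgax and Batf3 fell in both populations and Ccr7 rose in gMDSC (2.71 ± 0.80), where 4 of 7 tested were positive with a median of 0.31. The call of Mrc1 was lost without vehicle mMDSC 2 or 3 (adjusted p at most 0.0566), and that of Ccr7 held only without vehicle gMDSC 1, 3 or 4 (otherwise at most 0.12). All 19 macrophage markers had counts in every group. Of the 10 dendritic cell markers, Xcr1 was at 0 in all CBPi mMDSC libraries. Lymphocyte and NK cell markers summed to at most 14.3 CPM in any library. The part of these shifts in the lysosomal results was not tested.

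**Figure D3:**
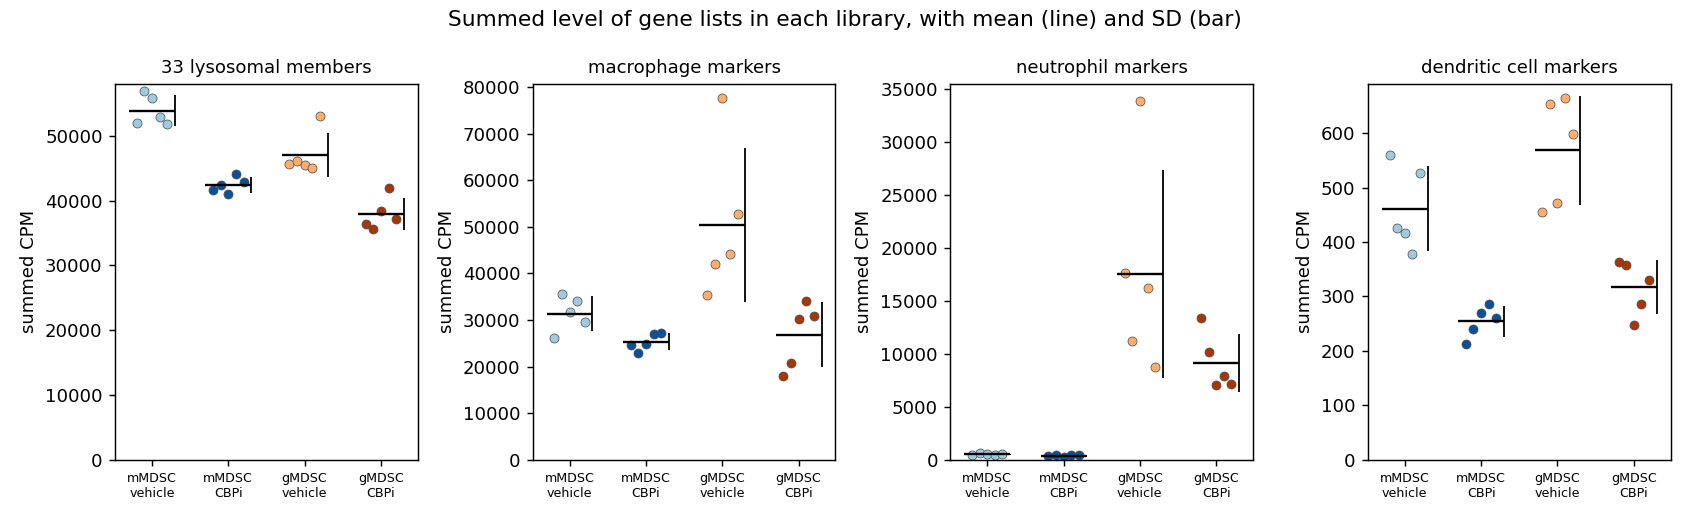
Summed CPM per library of the 33 members and of macrophage, neutrophil and dendritic cell markers, with mean (line) and SD (bar) in each group of 5. The members' sums with CBPi lie under those with vehicle in both populations, vehicle gMDSC 3 has the highest macrophage sum (77779 CPM), and mMDSC libraries have low neutrophil sums.

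Among the cathepsins and legumain, 5 of 9 fell in mMDSC and 3 of 9 fell in gMDSC, where 1 rose. Ctss was at 6484, 8240, 8220, 9684 and 6307 CPM in vehicle mMDSC and at 5620, 4452, 5779, 5347 and 5207 CPM with CBPi. The groups did not overlap, and the log2 fold change was -0.58 ± 0.12 (SE, adjusted p = 0.0101). In gMDSC, Ctss went from 6564, 5524, 7116, 5930 and 6535 CPM to 2466, 2632, 3763, 4194 and 3513 CPM (log2 fold change -0.92 ± 0.18, adjusted p = 0.00666). CBPi gMDSC 6 and 7, the libraries with the lowest macrophage sums, also had the lowest Ctss. Ctsh, an aminopeptidase of the papain family, was at 1307 to 1729 CPM in vehicle mMDSC and at 775 to 1003 CPM with CBPi (log2 fold change -0.76 ± 0.11, adjusted p = 0.000864). In gMDSC it was at 917 to 1115 CPM and then at 437 to 844 CPM (-0.66 ± 0.18, adjusted p = 0.0383).

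Ctsz, a carboxypeptidase, went from 2856 ± 255 CPM to 2028 ± 142 CPM in mMDSC (log2 fold change -0.51 ± 0.09, adjusted p = 0.00309) and from 2338 ± 478 CPM to 1562 ± 156 CPM in gMDSC (-0.57 ± 0.16, adjusted p = 0.0438). Ctsc fell in mMDSC from 7308 ± 489 to 5261 ± 291 CPM (log2 fold change -0.49 ± 0.07, adjusted p = 0.0014). In gMDSC its fold change was -0.69 ± 0.21 with an adjusted p of 0.0557 by edgeR and 0.0106 by DESeq2. There the vehicle libraries were at 5181, 4960, 2710, 4160 and 5649 CPM, and without vehicle gMDSC 3, the low library, the adjusted p was 0.00901. In the edgeR fit of all 20 libraries, Ctsc missed the threshold in mMDSC (adjusted p = 0.0824) and passed in gMDSC (0.00327). Ctsa, the protective protein that stabilises neuraminidase and beta-galactosidase, fell in mMDSC from 2069 ± 148 to 1685 ± 82.8 CPM (-0.31 ± 0.08, adjusted p = 0.0291). In gMDSC the log2 fold change of Ctsa was -0.35 ± 0.15 (adjusted p = 0.165). In the edgeR fit of all 20 libraries, Ctsa passed in gMDSC (adjusted p = 0.0181) and missed the threshold in mMDSC (0.117). The mMDSC call of Ctsa was lost without vehicle mMDSC 2, 3 or 5 or CBPi mMDSC 6, 8, 9 or 10, with an adjusted p of at most 0.082. The gMDSC call of Ctsh was lost without any library but CBPi gMDSC 9 (at most 0.111). That of Ctsz was lost without any library but vehicle gMDSC 4 and CBPi gMDSC 9 (at most 0.109).

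Ctsl, cathepsin L, went the other way in gMDSC. It was at 291, 270, 328, 283 and 336 CPM with vehicle and at 494, 415, 469, 486 and 409 CPM with CBPi. Every CBPi library lay above every vehicle library, with a log2 fold change of 0.61 ± 0.13 and an adjusted p of 0.0131. In mMDSC, where its vehicle level was already 558 ± 79.6 CPM, Ctsl had 634 ± 64.7 CPM with CBPi (0.17 ± 0.12, adjusted p = 0.444). Ctsb, Ctsd and Lgmn (legumain, which activates cathepsins) passed no edgeR test, with log2 fold changes of -0.30 ± 0.10, -0.12 ± 0.14 and -0.27 ± 0.11 in mMDSC and of -0.09 ± 0.14, -0.01 ± 0.18 and -0.14 ± 0.18 in gMDSC. Without vehicle mMDSC 4, Ctsb fell in mMDSC (adjusted p = 0.0353), as it did by DESeq2 with all 10 libraries (0.0482).

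Among the 8 glycosidases, lipases and phosphatases, 4 fell and 1 rose in mMDSC, and 1 fell and 2 rose in gMDSC. Acp5 encodes tartrate-resistant acid phosphatase, an enzyme of osteoclasts and activated macrophages. It was at 661, 769, 727, 713 and 607 CPM in vehicle mMDSC and at 107, 83, 93.4, 126 and 124 CPM with CBPi. In gMDSC it was at 625, 536, 822, 558 and 678 CPM and at 109, 156, 173, 258 and 198 CPM. No CBPi library reached a vehicle library in either population. The log2 fold change was -2.72 ± 0.13 in mMDSC (adjusted p = 4.8e-07) and -1.83 ± 0.22 in gMDSC (adjusted p = 0.000312). Both calls held without any 1 library. The 4 osteoclast markers summed to 121 to 148 CPM in vehicle mMDSC and 64.6 to 92.6 CPM with CBPi, nearly all from Ocstamp (131 ± 14.8 and 74.2 ± 13.6 CPM). Calcr was at 0 in all 20 libraries, and the sum was at most 17.3 CPM in gMDSC. The part of osteoclast-like cells in the fall of Acp5 was not tested in mMDSC.

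Gla, which encodes alpha-galactosidase A and carries 2 E-boxes in the promoter shown, was at 213, 130, 306, 132 and 132 CPM in vehicle gMDSC. With CBPi it was at 734, 534, 376, 459 and 265 CPM. The CBPi libraries were higher apart from CBPi gMDSC 10, which lay under vehicle gMDSC 3 (log2 fold change 1.39 ± 0.30, adjusted p = 0.0131). In mMDSC, Gla stayed between 121 and 151 CPM in all 10 libraries (log2 fold change -0.03 ± 0.10, adjusted p = 0.883). The call in gMDSC held without any 1 library. Within CBPi gMDSC, the highest values came from libraries 6 and 7, which also had the highest neutrophil sums (13416 and 10145 CPM against at most 7937 CPM in the other CBPi libraries). Within vehicle gMDSC, the highest value came from library 3, which had the highest neutrophil sum of all libraries. Between the treatments, 4 of the 11 neutrophil markers fell with CBPi in gMDSC and 0 rose (edgeR, with 8 at an unadjusted p under 0.05 in either direction), while Gla rose. The part of neutrophil content in the Gla levels was not tested.

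Neu1, the lysosomal sialidase, was at 141, 142, 136, 104 and 156 CPM in vehicle mMDSC and at 167, 197, 192, 217 and 211 CPM with CBPi. In gMDSC it was at 193, 166, 187, 185 and 175 CPM and at 322, 279, 259, 244 and 254 CPM. The groups did not overlap in either population. The log2 fold changes were 0.52 ± 0.12 (adjusted p = 0.0206) and 0.60 ± 0.13 (adjusted p = 0.0131). The mMDSC call was lost without vehicle mMDSC 3 or CBPi mMDSC 9 or 10 (adjusted p at most 0.0676), and the gMDSC call held without any 1 library.

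Acp2, the lysosomal acid phosphatase, Hexa, the alpha subunit of beta-hexosaminidase, and Gusb, beta-glucuronidase, fell in mMDSC. Acp2 went from 247 ± 56.4 to 168 ± 16.6 CPM (log2 fold change -0.57 ± 0.15, adjusted p = 0.0343). Hexa went from 831 ± 63.5 to 630 ± 67.7 CPM (-0.42 ± 0.10, adjusted p = 0.0214). Gusb went from 659 ± 71.3 to 500 ± 41 CPM (-0.42 ± 0.10, adjusted p = 0.0265). In gMDSC their log2 fold changes were -0.21 ± 0.18, -0.46 ± 0.16 and -0.47 ± 0.18, and none passed edgeR's quasi-likelihood test. Hexa passed by DESeq2 (adjusted p = 0.025), and Hexa (0.00793) and Gusb (0.016) passed in the edgeR fit of all 20 libraries. The mMDSC calls were less firm than that of Acp5. That of Acp2 held only without vehicle mMDSC 4 (adjusted p otherwise at most 0.0839). That of Hexa was lost without vehicle mMDSC 2, 3 or 5 or CBPi mMDSC 6 (at most 0.0592). That of Gusb was lost without vehicle mMDSC 1, 2, 3 or 5 or CBPi mMDSC 6, 8 or 9 (at most 0.0676). Acp2 and Hexa overlap other protein-coding genes in the annotation (Nr1h3 and Ddb2, and Tmem202), and strand use in the counting is not given in the sources used here. Glb1 (beta-galactosidase) and Lipa (lysosomal acid lipase) passed no test, with log2 fold changes of 0.03 ± 0.14 and -0.31 ± 0.11 in mMDSC and of -0.01 ± 0.19 and -0.34 ± 0.22 in gMDSC. Lipa fell in mMDSC without vehicle mMDSC 4 (adjusted p = 0.0427) and in gMDSC without vehicle gMDSC 3 (0.0296).

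The 3 cofactors and secreted proteins, Psap, Grn (progranulin, cleaved to granulins in lysosomes) and Npc2 (a soluble cholesterol carrier), passed no test of CBPi. Their log2 fold changes were -0.19 ± 0.11, -0.14 ± 0.09 and -0.28 ± 0.13 in mMDSC. In gMDSC they were -0.21 ± 0.19, -0.06 ± 0.16 and -0.27 ± 0.16. Grn held 4333 ± 335 CPM in vehicle mMDSC and 3986 ± 322 CPM with CBPi.

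Among the 8 membrane proteins, 3 fell in mMDSC and 2 in gMDSC, and 0 rose by edgeR's quasi-likelihood test, while Lamp2 in gMDSC and Mcoln1 in both populations rose by DESeq2. Laptm5, a membrane protein of leukocyte lysosomes that targets immune receptors for degradation, fell in both populations. It was at 1839, 2249, 2093, 2057 and 2038 CPM in vehicle mMDSC and at 1538, 1552, 1486, 1522 and 1514 CPM with CBPi. In gMDSC it went from 2128, 2007, 1919, 2326 and 2238 CPM to 1422, 1360, 1343, 1414 and 1418 CPM. The groups did not overlap, with log2 fold changes of -0.45 ± 0.08 (adjusted p = 0.00309) and -0.59 ± 0.13 (adjusted p = 0.0118). Both calls held without any 1 library.

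Gpnmb, a glycoprotein of lipid-laden and MITF-driven macrophages, was at 36.4, 35.7, 64, 22.2 and 42.8 CPM in vehicle mMDSC. With CBPi it was at 8.93, 7.06, 0.0436, 7.88 and 7.8 CPM, and CBPi mMDSC 8 held 1 count. The log2 fold change was -2.67 ± 0.63 (adjusted p = 0.0196), and without vehicle mMDSC 3 the adjusted p was 0.0551. In gMDSC it was low in both groups, at 9.2 ± 4.33 and 6.08 ± 2.23 CPM (-0.58 ± 0.41, adjusted p = 0.404). Cd68, a macrophage sialomucin, fell in mMDSC from 1270, 1720, 1924, 2008 and 1428 CPM to 1398, 1013, 1144, 1109 and 1097 CPM (log2 fold change -0.55 ± 0.14, adjusted p = 0.0237). CBPi mMDSC 6 lay above vehicle mMDSC 1, and the call was lost without vehicle mMDSC 2 or 3 or CBPi mMDSC 7, 9 or 10 (adjusted p at most 0.0624). In gMDSC the log2 fold change of Cd68 was -0.36 ± 0.14 (adjusted p = 0.131).

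Cd63, a tetraspanin of late endosomes and of neutrophil granules, fell in gMDSC from 416, 372, 813, 425 and 419 CPM to 223, 258, 288, 362 and 279 CPM (log2 fold change -0.78 ± 0.22, adjusted p = 0.0445). Vehicle gMDSC 3 was the high value. The call was lost without vehicle gMDSC 1 or 4 or CBPi gMDSC 6, 7, 8 or 10 (adjusted p at most 0.114), and held without vehicle gMDSC 3. In mMDSC, Cd63 was at 159 ± 19.2 CPM and 176 ± 35.3 CPM (0.13 ± 0.14, adjusted p = 0.667). Lamp2 and Mcoln1, a calcium channel that acts on TFEB, lay above vehicle in every CBPi gMDSC library but missed the threshold. Lamp2 was at 620 to 774 CPM and at 851 to 1350 CPM (0.54 ± 0.16, adjusted p = 0.0506 by edgeR and 0.00774 by DESeq2). Mcoln1 was at 51.6 to 76.7 CPM and at 78.5 to 108 CPM (0.55 ± 0.17, adjusted p = 0.0549 by edgeR, 0.0135 by DESeq2, and 0.0287 by edgeR without vehicle gMDSC 3). In mMDSC, Mcoln1 was at 82.8 to 99.2 CPM and at 112 to 130 CPM (0.34 ± 0.10, adjusted p = 0.0589 by edgeR and 0.00567 by DESeq2). Lamp1 had log2 fold changes of -0.14 ± 0.09 in mMDSC and -0.01 ± 0.15 in gMDSC. Npc1, the membrane cholesterol exporter, had -0.54 ± 0.18 (adjusted p = 0.083 by edgeR, 0.034 by DESeq2, and 0.0245 by edgeR without CBPi mMDSC 6) and -0.47 ± 0.17 (adjusted p = 0.109).

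**Figure D4:**
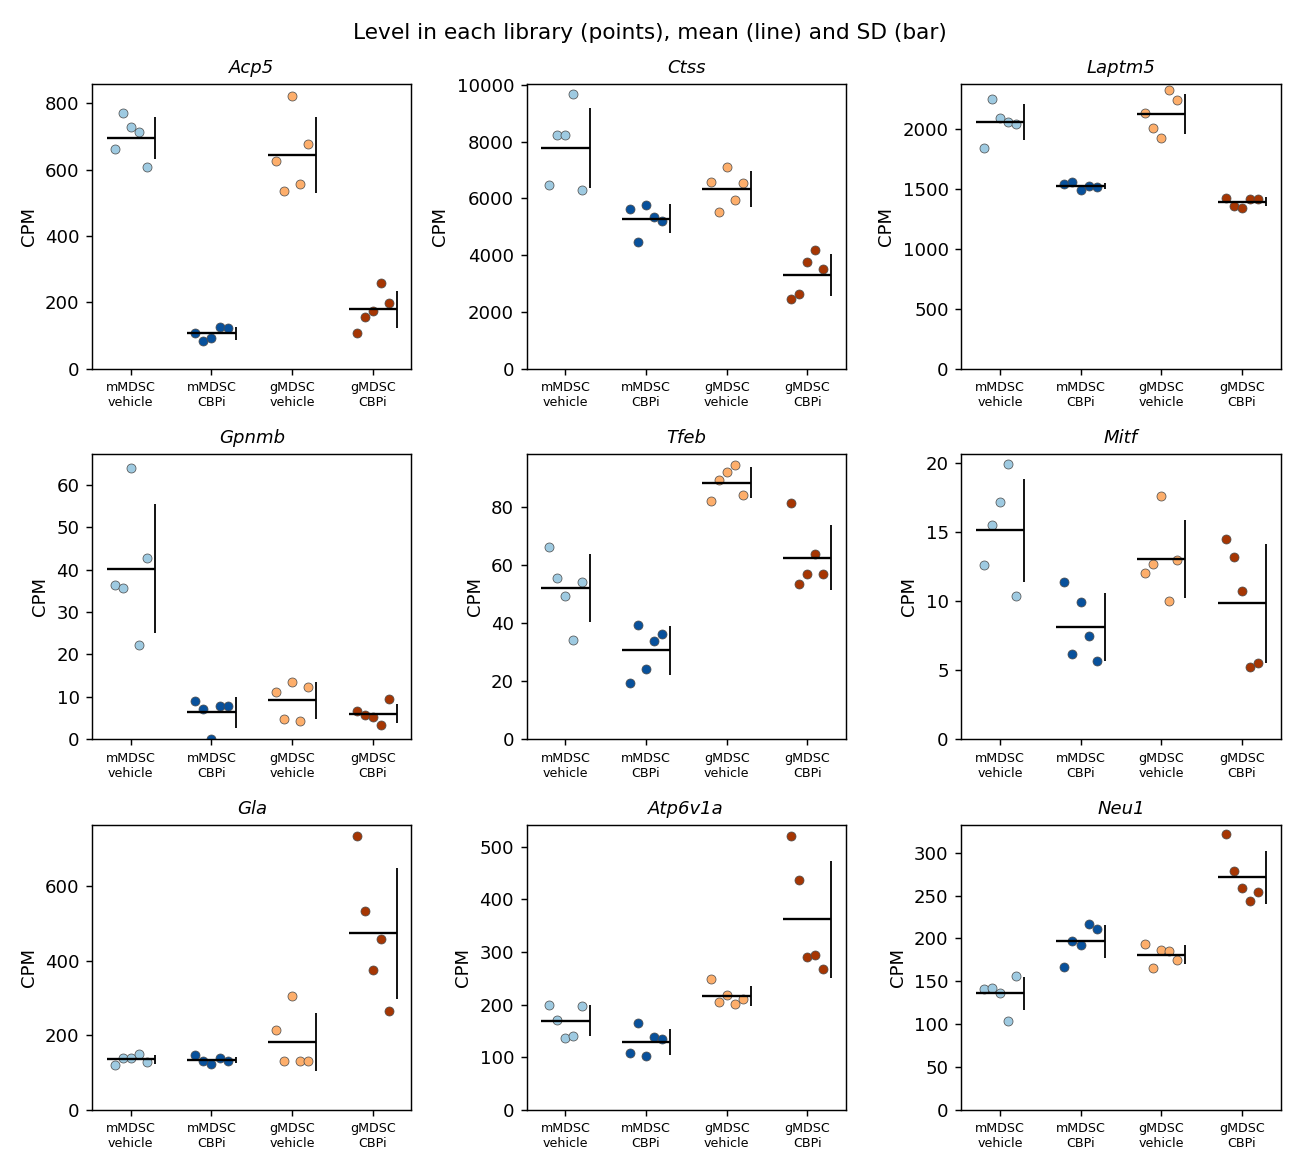
CPM of 9 members in each library (points), with mean (line) and SD (bar), in the 4 groups of 5 libraries; axes start at 0. Acp5, Ctss and Laptm5 are lower with CBPi in both populations, Gpnmb and Mitf fell in mMDSC, and Gla and Atp6v1a are highest in CBPi gMDSC 6 and 7.

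Of the 3 regulators, 2 fell in mMDSC and 0 in gMDSC by edgeR's quasi-likelihood test. Tfeb was at 66.3, 55.7, 49.4, 34.2 and 54.3 CPM in vehicle mMDSC and at 19.5, 39.4, 24.3, 33.7 and 36.3 CPM with CBPi (log2 fold change -0.78 ± 0.22, adjusted p = 0.0433). The groups overlapped through vehicle mMDSC 4. In gMDSC it was at 82.1 to 94.5 CPM and at 53.6 to 81.4 CPM, with no overlap (-0.49 ± 0.15, adjusted p = 0.0634). Without CBPi gMDSC 6, the highest of its group, the adjusted p was 0.0317, and by DESeq2 with all 10 libraries it was 0.0184. Mitf was at 12.6, 15.5, 17.2, 19.9 and 10.4 CPM in vehicle mMDSC and at 11.4, 6.14, 9.9, 7.44 and 5.7 CPM with CBPi (-0.92 ± 0.25, adjusted p = 0.0361). In gMDSC its log2 fold change was -0.40 ± 0.34 (adjusted p = 0.496). The mMDSC call of Tfeb held only without vehicle mMDSC 4 or CBPi mMDSC 7 (adjusted p otherwise at most 0.105). That of Mitf was lost without vehicle mMDSC 2, 3 or 4 or CBPi mMDSC 7, 9 or 10 (at most 0.0882). Tfe3 had log2 fold changes of -0.17 ± 0.18 and -0.05 ± 0.21.

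Of the 2 proton pump members, Atp6v1a rose in gMDSC and Atp6v0d2 passed no test of CBPi. Atp6v1a, the catalytic subunit that splits ATP, was at 248, 204, 218, 201 and 210 CPM in vehicle gMDSC and at 521, 436, 290, 295 and 268 CPM with CBPi. Every CBPi library was higher, libraries 6 and 7 the most (log2 fold change 0.76 ± 0.19, adjusted p = 0.0278). The call was lost without vehicle gMDSC 2 or 4 or CBPi gMDSC 6 or 7 (adjusted p at most 0.0806). In mMDSC it was at 199, 171, 137, 141 and 197 CPM and at 108, 164, 103, 138 and 134 CPM (-0.40 ± 0.16, adjusted p = 0.147). Atp6v0d2 was at 2.94, 2.5, 12.3, 3.73 and 1.86 CPM in vehicle gMDSC and at 3.17, 0, 1.92, 0.695 and 0.193 CPM with CBPi (-1.96 ± 0.96, adjusted p = 0.221).

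The promoter motifs can be set beside these calls. Of the 4 members that rose in gMDSC, 3 held a CACGTG (Atp6v1a, Ctsl and Gla). Of the 6 that fell there, 5 had a window and 0 held one, and of the 23 that passed no test, 20 had a window and 6 held one. Of the 14 that fell in mMDSC, 13 had a window and 1 held a CACGTG (Ctsa). For Atp6v1a, Ctsl, Ctsa and Lgmn, the window with a CACGTG belongs to a start inside the annotated gene. Whether these cells use that start was not measured. CATGTGA was found for 2 members that fell in both populations (Acp5 and Ctss) and for 2 that rose in gMDSC (Gla and Neu1, of which Neu1 also rose in mMDSC). That of Neu1 lies after the start, beyond the stretch shown. These are counts of letters in short windows of a few genes and were not tested.

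The difference between the responses (gMDSC minus mMDSC, all 20 libraries) passed the test for 1 member, beside 0.497% of all genes on the higher side. This was Atp6v1a, with a log2 difference of 1.12 ± 0.26 (adjusted p = 0.0427). It was lost without any 1 of 11 libraries: vehicle mMDSC 1 and 5, CBPi mMDSC 6, 8 and 10, vehicle gMDSC 1, 2, 4 and 5, and CBPi gMDSC 6 and 7 (adjusted p at most 0.0907). On the lower side 0 members passed, beside 0.229% of all genes, by edgeR's quasi-likelihood test, and 7 members had an unadjusted p under 0.05 in either direction. By DESeq2, 3 members were higher and 1 was lower. Gla had a log2 difference of 1.37 ± 0.34 with an adjusted p of 0.0578, and passed without vehicle gMDSC 3 or CBPi gMDSC 10 (lowest adjusted p 0.00713). The differences of Acp5 (0.84 ± 0.25, adjusted p = 0.154), Gpnmb (2.05 ± 0.81, adjusted p = 0.324), Cd63 (-0.96 ± 0.28, adjusted p = 0.128), Lamp2 (0.51 ± 0.17, adjusted p = 0.222) and Ctsl (0.40 ± 0.17, adjusted p = 0.355) missed it. By edgeR's quasi-likelihood test on all 20 libraries, a fall or rise of these genes in 1 population is therefore not shown to be greater than in the other.

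The populations also differed from each other in these genes. With vehicle, 5 of 33 members were higher in gMDSC than in mMDSC, beside 13.6% of all genes, and 8 were lower, beside 8.08%. Under CBPi, 8 of 32 were higher, beside 20.1%, and 10 were lower, beside 19.1%. On the higher side the members' share was close to that of all genes with vehicle and somewhat above it under CBPi, and on the lower side it was above that of all genes with either treatment. The median log2 fold change of the members was -0.16 with vehicle and -0.06 under CBPi, against -0.06 and -0.05 over all genes. The vehicle comparison shares its libraries with the CBPi comparisons above, so its values are not independent of them. The number higher with vehicle was 3 without vehicle mMDSC 2 or 3 or vehicle gMDSC 1 or 4, and the number lower was 5 without vehicle mMDSC 2 or vehicle gMDSC 4. Under CBPi, 6 were lower without CBPi mMDSC 10. Macrophage, monocyte and neutrophil markers also differed between the populations, and the part of this in the members' differences was not tested.

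Ctsd was higher in gMDSC without overlap. It was at 1765, 1705, 1781, 1093 and 1820 CPM in vehicle mMDSC and at 4743, 5100, 5382, 5144 and 4809 CPM in vehicle gMDSC (log2 fold change 1.67 ± 0.15, adjusted p = 5.26e-06). Under CBPi the values were 1246 to 1745 CPM and 3637 to 6859 CPM (1.76 ± 0.17). Cd63 was higher by 1.65 ± 0.22 with vehicle and by 0.74 ± 0.16 under CBPi. Tfeb was higher by 0.81 ± 0.17 and by 1.09 ± 0.20, and Neu1 by 0.46 ± 0.13 and by 0.53 ± 0.12. The vehicle call of Neu1 was lost without vehicle mMDSC 2 or 3 or vehicle gMDSC 1 or 4 (adjusted p at most 0.0709). Atp6v0d2 was higher with vehicle by 2.91 ± 0.94, from counts near 0 in mMDSC, and the call was lost without any 1 of 7 libraries (vehicle mMDSC 1, 2 and 3 and vehicle gMDSC 1, 2, 3 and 4, adjusted p at most 0.098). Gla (1.88 ± 0.22), Atp6v1a (1.54 ± 0.20), Lamp2 (0.84 ± 0.14) and Acp5 (0.81 ± 0.20) were higher in gMDSC under CBPi. Their log2 fold changes with vehicle were 0.46 ± 0.24, 0.39 ± 0.14, 0.30 ± 0.11 and -0.07 ± 0.14, and none of these passed edgeR's quasi-likelihood test on all 10 libraries. Lamp2 passed without vehicle gMDSC 3 (adjusted p = 0.0427) and by DESeq2 (0.00509), and Atp6v1a passed by DESeq2 (0.0289).

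**Figure D5:**
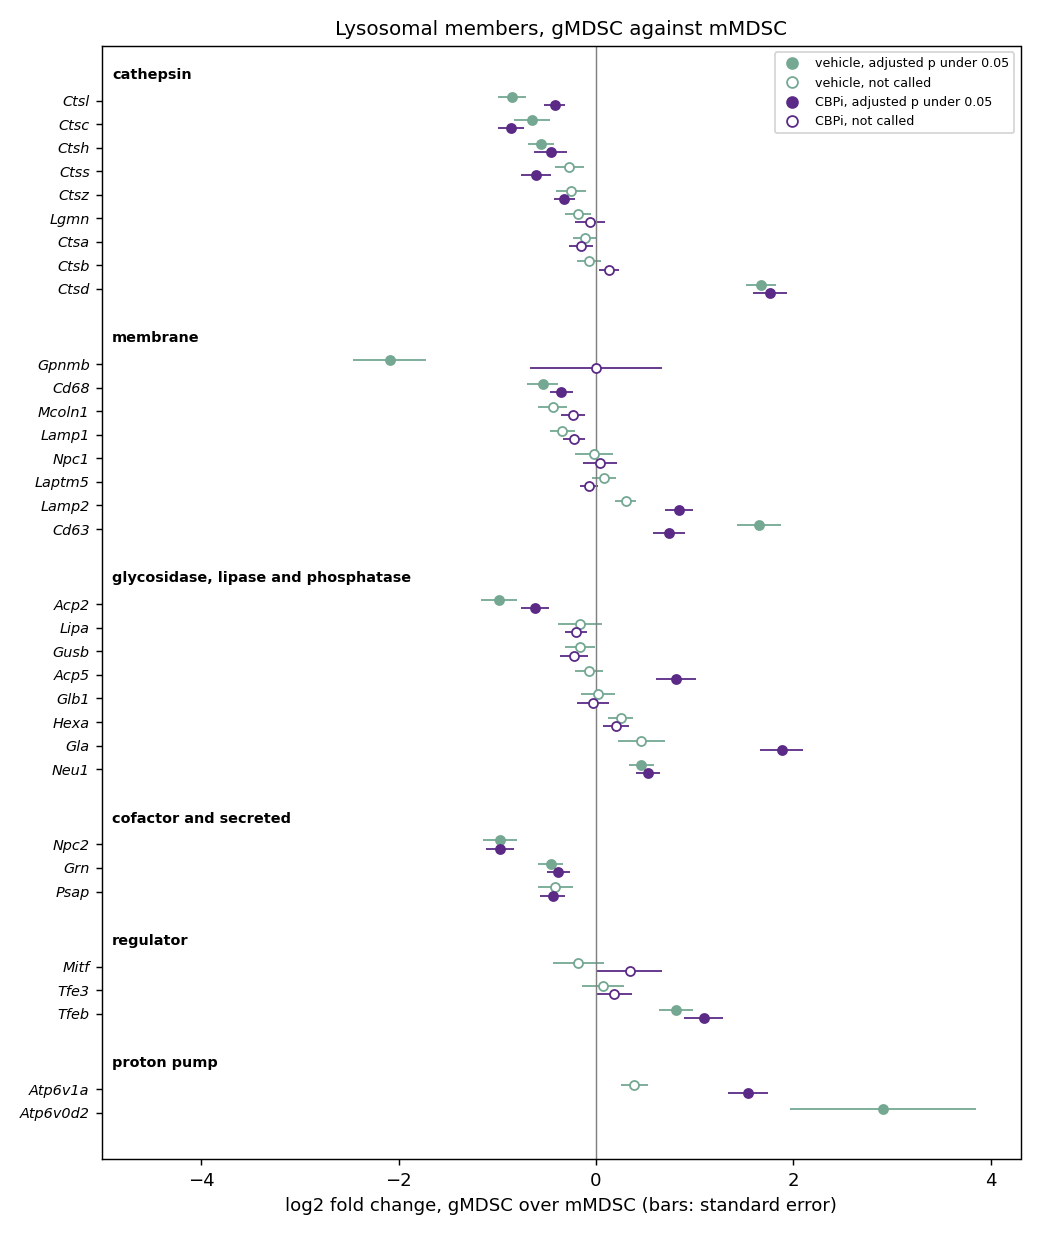
Log2 fold change of each member in gMDSC over mMDSC with its standard error, by role, with vehicle (green) and under CBPi (purple); filled points passed an adjusted p under 0.05. Ctsd, Cd63, Tfeb and Neu1 are higher in gMDSC with both treatments, and Npc2, Acp2, Ctsc, Ctsl, Ctsh, Grn and Cd68 are lower with both.

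Lower in gMDSC with both treatments were Npc2 (log2 fold change -0.97 ± 0.17 with vehicle and -0.97 ± 0.14 under CBPi), Acp2 (-0.98 ± 0.18 and -0.62 ± 0.14), Ctsl (-0.85 ± 0.14 and -0.42 ± 0.11), Ctsc (-0.65 ± 0.18 and -0.86 ± 0.13), Ctsh (-0.56 ± 0.13 and -0.46 ± 0.17), Cd68 (-0.54 ± 0.16 and -0.35 ± 0.12) and Grn (-0.46 ± 0.13 and -0.38 ± 0.12). Gpnmb was lower with vehicle by -2.09 ± 0.37 on the log2 scale. Ctss (-0.61 ± 0.15), Psap (-0.44 ± 0.13) and Ctsz (-0.32 ± 0.11) were lower under CBPi. With vehicle, the calls of Ctsc were lost without vehicle mMDSC 2 or vehicle gMDSC 4 (adjusted p at most 0.0541). Those of Grn were lost without vehicle mMDSC 2 or 3 or vehicle gMDSC 4 (at most 0.0647), and those of Cd68 without any library but vehicle mMDSC 1 and 5 and vehicle gMDSC 3 (at most 0.0809). Under CBPi, Ctsh, Cd68, Ctsz and Grn were lost without at least 1 library (adjusted p at most 0.0978, 0.0947, 0.0773 and 0.0566), among them CBPi mMDSC 10 for each. Ctsh and Cd68 were also lost without CBPi mMDSC 6, 8 or 9 or CBPi gMDSC 7 or 10, Ctsh without CBPi gMDSC 6 and Cd68 without CBPi gMDSC 8, and Ctsz without CBPi mMDSC 8 or 9 or CBPi gMDSC 7, 8 or 10. Without vehicle gMDSC 3, Ctsz (adjusted p = 0.0305) and Mcoln1 (0.0186) were lower with vehicle, and without vehicle gMDSC 5, Lamp1 (0.0206) and Psap (0.0281) were.

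Other lysosomal genes were read in 5 further lists, whose counts stand beside 5.54% of all genes that fell and 3.02% that rose in mMDSC and 5.52% and 4.18% in gMDSC. Of 32 other acid hydrolases, 4 fell and 2 rose in mMDSC, and 3 fell and 0 rose in gMDSC (edgeR, with 7 of 32 at an unadjusted p under 0.05 in gMDSC). Gm2a, a lipid-binding activator protein of ganglioside breakdown, fell by 0.55 ± 0.09 and by 0.61 ± 0.15 on the log2 scale. Ppt1, a thioesterase that removes palmitate from proteins, went from 421 ± 20.6 to 302 ± 24.8 CPM in mMDSC and from 592 ± 91.3 to 359 ± 26.2 CPM in gMDSC (-0.50 ± 0.09 and -0.71 ± 0.14). Ppt2 fell in mMDSC (-0.86 ± 0.16), while Smpd1, acid sphingomyelinase (0.87 ± 0.17), and Ctsf, cathepsin F (1.12 ± 0.29), rose. The list medians were -0.16 in mMDSC and -0.02 in gMDSC. The gMDSC call of Gm2a was lost without vehicle gMDSC 4 or CBPi gMDSC 7 (adjusted p at most 0.0639). The mMDSC call of Ctsf was lost without vehicle mMDSC 2, 3 or 4 or CBPi mMDSC 8, 9 or 10 (at most 0.0866).

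Of 28 other lysosomal membrane proteins, 27 were tested in each population. In mMDSC, Tpcn1, an endolysosomal cation channel (-1.14 ± 0.23), and Scarb2, the receptor that carries glucocerebrosidase (-0.44 ± 0.11), fell and Cd164 (0.66 ± 0.10) rose. In gMDSC 3 rose and 0 fell (edgeR, with 7 at an unadjusted p under 0.05). Cd164, a sialomucin, went from 72.6, 54.6, 19.3, 52.2 and 54.3 CPM to 141, 133, 99.1, 102 and 110 CPM (1.23 ± 0.27). Ostm1, partner of a lysosomal chloride transporter, rose by 1.00 ± 0.23, and Abcb9, a peptide transporter, rose from 0.228 ± 0.122 to 2.9 ± 1.84 CPM (3.63 ± 0.71). Of the 19 other pump subunits, 17 were tested: Tcirg1 (-0.40 ± 0.10) and Atp6ap2 (-0.37 ± 0.09) fell in mMDSC, and Atp6v1h (0.78 ± 0.19) rose in gMDSC. The call of Scarb2 was lost without vehicle mMDSC 2, 3 or 5 or CBPi mMDSC 6, 7 or 8 (adjusted p at most 0.0649), and that of Tcirg1 without vehicle mMDSC 2 or 3 or CBPi mMDSC 6, 8, 9 or 10 (at most 0.0652). That of Atp6ap2 was lost without vehicle mMDSC 3 or CBPi mMDSC 10 (at most 0.06), and that of Atp6v1h without vehicle gMDSC 1 or CBPi gMDSC 6 or 7 (at most 0.0612).

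Of 23 genes that deliver enzymes to lysosomes, 0 were called in mMDSC (edgeR, with 1 at an unadjusted p under 0.05) and 3 rose in gMDSC. These were Igf2r, the large mannose 6-phosphate receptor (1.34 ± 0.33), Vps11, of the tethering complexes for fusion with lysosomes (1.07 ± 0.15), and Ap1g1, of the clathrin adaptor AP-1 (1.00 ± 0.19). Igf2r was at 23.3 to 30.9 CPM in vehicle gMDSC and at 93.2, 113, 52.3, 28.7 and 40.3 CPM with CBPi, and its call was lost without vehicle gMDSC 4 or CBPi gMDSC 6 or 7 (adjusted p at most 0.0662). Vps11 was at 69.7 to 99.7 CPM and at 145 to 196 CPM. The list median in gMDSC was 0.35.

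Of 15 genes listed around the control of TFEB by mTORC1, 3 rose and 1 fell in gMDSC, and 1 of 14 tested fell in mMDSC. The list also holds Tfec and Ppp3ca, which are not parts of the mTORC1 pathway. Flcn, folliculin, and its partners Fnip1 and Fnip2 act on the Rag GTPases and thereby on TFEB. Fnip2 was at 34.2, 52, 13.4, 24.6 and 43.1 CPM in vehicle gMDSC and at 184, 182, 101, 59.5 and 67.7 CPM with CBPi (log2 fold change 1.84 ± 0.40, adjusted p = 0.0135), with no overlap. In mMDSC it was at 35.8, 32.7, 33.7, 20.2 and 40.4 CPM and at 21.2, 25.6, 14.5, 18.7 and 20.2 CPM (-0.72 ± 0.20, adjusted p = 0.0456). The difference between the responses of Fnip2 was 2.52 ± 0.47 (adjusted p = 0.0148) and held without any 1 library. Flcn (1.00 ± 0.27) and Fnip1 (1.23 ± 0.33) rose in gMDSC and Lamtor2, of the Ragulator complex, fell (-0.70 ± 0.20). The call of Flcn was lost without vehicle gMDSC 1 or 4 or CBPi gMDSC 6 or 7 (adjusted p at most 0.087), and that of Fnip1 without vehicle gMDSC 4 or CBPi gMDSC 6, 7, 8 or 9 (at most 0.0884). Lamtor2 held only without vehicle gMDSC 2 or 5 (otherwise at most 0.119), and Fnip2 in mMDSC only without vehicle mMDSC 4 or CBPi mMDSC 7 (otherwise at most 0.109). As with Gla and Atp6v1a, the highest Fnip2 and Flcn values were in CBPi gMDSC 6 and 7, for Flcn 445 and 323 CPM against at most 218 CPM in the other 3, and the part of those libraries' neutrophil sums was not tested.

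Between the populations, the lists are read beside 13.6% of all genes that were higher and 8.08% that were lower in gMDSC with vehicle, and 20.1% and 19.1% under CBPi. Of 32 acid hydrolases, 6 were higher and 4 lower with vehicle, and 8 and 3 under CBPi. Ctsf (log2 fold change 2.36 ± 0.34 with vehicle and 1.27 ± 0.26 under CBPi) and Arsb, arylsulfatase B (1.13 ± 0.30 and 0.66 ± 0.16), were higher with both treatments, and Ctse, cathepsin E, was higher by 0.96 ± 0.25 with vehicle. The serine carboxypeptidase Scpep1 (-0.86 ± 0.18 and -0.69 ± 0.16) and Aga, which cleaves glycoasparagines (-0.58 ± 0.15 and -0.64 ± 0.18), were lower with both, Ppt2 was lower with vehicle (-1.15 ± 0.31) and Gm2a under CBPi (-0.62 ± 0.10). The vehicle call of Aga was lost without vehicle mMDSC 2 or 3 (adjusted p at most 0.0535).

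Of the membrane proteins, 5 of 26 were higher and 1 lower with vehicle, and 9 of 27 and 4 under CBPi. Litaf, a late endosome protein, was higher with both (1.51 ± 0.17 and 1.71 ± 0.18), Cln3 with vehicle (0.79 ± 0.18) and the metal ion transporter Slc11a1 under CBPi (0.90 ± 0.16). Tmem192 was lower with both (-1.03 ± 0.16 and -0.90 ± 0.17), and the channels Mcoln2 (-1.98 ± 0.71) and Tmem175 (-0.70 ± 0.16) were lower under CBPi. The call of Mcoln2 was lost without CBPi mMDSC 6, 7, 8 or 9 or CBPi gMDSC 7, 8 or 9 (adjusted p at most 0.092). Of 17 pump subunits, 1 was higher and 2 lower with vehicle, and 6 and 0 under CBPi by edgeR. Atp6v0a1 was at 68.4 ± 16.2 CPM in vehicle mMDSC and 281 ± 68.9 CPM in vehicle gMDSC, and at 66.6 ± 11.2 and 181 ± 37.2 CPM under CBPi, and was higher in gMDSC with both. Atp6v0c (0.95 ± 0.35) and Atp6v1c1 (0.67 ± 0.14) were higher under CBPi, and Atp6v1h (-0.72 ± 0.17) and Tcirg1 (-0.38 ± 0.11) were lower with vehicle. Atp6v0c held only without CBPi gMDSC 9 (otherwise at most 0.144), and Tcirg1 was lost without vehicle mMDSC 1, 2 or 3 or vehicle gMDSC 1, 2 or 4 (at most 0.0657).

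Of 23 delivery genes, 2 were higher and 2 lower with vehicle, and 7 and 6 under CBPi. Rab7, the late endosome GTPase, was higher with both (1.55 ± 0.15 and 1.71 ± 0.17), Ap1m1, of the AP-1 adaptor, with vehicle (0.48 ± 0.14), and Igf2r (2.64 ± 0.41) and Ap1g1 (1.09 ± 0.26) under CBPi. Sumf1, which activates sulfatases, was lower with both (-0.72 ± 0.17 and -0.49 ± 0.13), the small mannose 6-phosphate receptor M6pr with vehicle (-0.52 ± 0.13), and Gnptab (-0.62 ± 0.20) and Nagpa (-0.62 ± 0.14), which make the mannose 6-phosphate tag, under CBPi. The call of Ap1m1 was lost without vehicle mMDSC 2, 4 or 5 or vehicle gMDSC 1, 2 or 4 (adjusted p at most 0.082), and that of Gnptab without CBPi mMDSC 7 (0.0569).

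Of the 15 genes listed around TFEB control, Tfec among them, 2 were higher and 3 lower with vehicle, and 5 and 3 under CBPi. Rragd, a Rag GTPase, was at 0 to 0.348 CPM in vehicle mMDSC and at 1.56 to 7.84 CPM in vehicle gMDSC, and at 0 to 0.518 CPM and 3.23 to 13.6 CPM under CBPi, and was higher in gMDSC with both. Fnip1 was higher with both (1.00 ± 0.32 and 1.99 ± 0.20) and Fnip2 under CBPi (2.63 ± 0.32). Tfec, a relative of Tfeb found in macrophages, was lower in gMDSC (-2.60 ± 0.74 and -2.90 ± 0.38), at 11.2 to 27 CPM in vehicle mMDSC and 0 to 7.56 CPM in vehicle gMDSC. Lamtor5 was lower with both (-0.77 ± 0.22 and -0.95 ± 0.22), Rraga with vehicle (-0.60 ± 0.16) and Lamtor2 under CBPi (-1.01 ± 0.21). The vehicle call of Fnip1 held only without vehicle gMDSC 3 or 4 (adjusted p otherwise at most 0.106). That of Tfec was lost without vehicle mMDSC 2 or 4 or vehicle gMDSC 2 (at most 0.0556), and that of Lamtor5 without vehicle mMDSC 2, 3 or 4 or vehicle gMDSC 2, 4 or 5 (at most 0.0628).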

How the data were processed

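Poly-A RNA of 20 sorted-cell libraries was measured, with 1 deposited file each. Per the submitters' processing notes, GSNAP was the aligner and GRCm38 the build. The counter, annotation, strand setting and tool version: not given in the sources used here. The authors' counts per gene, whole numbers without normalization, were used for all tests and levels. The deposited RPKM values were used only as a check on the order of levels per kilobase. Gene widths in the files were multiples of 3 in 79.97% of genes and are called coding length. Of 23090 Entrez IDs, 21647 matched a symbol in RefSeq GRCm38.p6.

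Comparisons of CBPi with vehicle within each population, of gMDSC with mMDSC within each treatment (10 libraries each) and of the responses (20 libraries) used edgeR 4.0.16 in R 4.3.3: TMM, filterByExpr (minimum count 10, total 15), glmQLFit and glmQLFTest, with Benjamini-Hochberg adjustment over all genes tested and a threshold of 0.05. Standard errors are the log2 fold change over the square root of F. Levels use 1 TMM scaling of all 20 libraries, so ratios of mean levels can differ slightly from the fitted fold changes. Alternatives were DESeq2 1.42.0, its size factors, no filter, all 20 libraries in the fit, a replicate block and leaving out each library. The members and all lists were chosen with earlier results of these data known. Named genes outside the members are those of 5 lysosome lists with the largest fold changes among calls, at most 3 per direction and comparison, with Crebbp, Ep300 and markers. The counts of the lists include some genes whose own values are not reported here. Replicates of a group differed by more than sampling noise. The labels do not say which libraries share a mouse. The p-values therefore reflect only how these libraries vary, which may be partly technical. The tumour line of each library was not analysed here.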

Additional observations from a re-analysis of the deposited data

Results flagged for a closer look

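Of 132 combinations of a member and a group, 8 had 1 library far from the other 4 by Dixon's criterion, and chance alone gives about 1 in 20. Vehicle gMDSC 3 was far above its group for Cd63 (813 CPM against 372 to 425 CPM) and for Atp6v0d2 (12.3 CPM against 1.86 to 3.73 CPM). Other high values were Ctsb in CBPi gMDSC 9 (6527 CPM against 5642 to 5870 CPM), Ctsl in CBPi mMDSC 6 (746 CPM against 585 to 630 CPM) and Atp6v0d2 in CBPi mMDSC 7 (0.296 CPM against 0 to 0.0363 CPM). Low values were Ctsd in vehicle mMDSC 4 (1093 CPM against 1705 to 1820 CPM), Lipa in CBPi gMDSC 6 (104 CPM against 125 to 130 CPM) and Gpnmb in CBPi mMDSC 8 (0.0436 CPM against 7.06 to 8.93 CPM).

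The response of Atp6v1a to CBPi differed between the populations in the test of the difference itself, with a log2 difference of 1.12 ± 0.26 (SE, adjusted p = 0.0427, edgeR quasi-likelihood test). All 5 CBPi gMDSC libraries lay above the vehicle gMDSC libraries, and the mMDSC groups overlapped. The call was lost without any 1 of 11 of the 20 libraries (adjusted p at most 0.0907) and with the replicate block (1.07, adjusted p = 0.085).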

How the results depend on the processing

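No called member changed sign under any alternative. By DESeq2, 678 genes rose in mMDSC, 866 rose and 1060 fell in gMDSC, and 184 and 93 were higher and lower in the difference of responses; 2 members then rose in mMDSC, and 3 and 1 differed in response. With all 20 libraries in the fit, 165 genes rose and 9 members fell in mMDSC, 872 genes rose, 1310 genes and 10 members fell in gMDSC, and 1519 genes were lower in gMDSC with vehicle. Without a filter, 3 members fell in gMDSC, with more genes tested. Leaving out 1 library each, 221 to 448 genes and 0 to 1 members rose and 6 to 15 members fell in mMDSC. In gMDSC, 229 to 658 genes rose and 358 to 736 genes and 3 to 6 members fell. Between populations with vehicle, 676 to 1521 genes and 5 to 10 members were lower and 3 to 5 members higher, and under CBPi 6 to 10 members were lower. In the difference, 23 to 85 genes were higher, 10 to 32 lower and 0 to 2 members higher. Apart from smaller fits, the cause of these shifts was not tested. With deposited RPKM, at most 4 members changed place in the order of levels, by 1 place. Numbers shared by mMDSC and gMDSC libraries gave correlations of deviations of -0.031 to 0.168, highest for the own number in 4 of 10. Correlations between different cell populations cannot decide whether a shared number marks a mouse, which the labels do not say. With the replicate block, 3 members were higher in gMDSC with vehicle, and the difference held 33 genes higher, 19 lower and 0 members. At these depths, from 12372630 counts, Atp6v0d2 had too few counts to be tested for CBPi in mMDSC.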
